A study of Rattus norvegicus with 60 samples.

Results

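The comparison described here set the lungs of rats that had breathed multi-walled carbon nanotubes (MWCNT) to a cumulative 90 mg/m3 against the lungs of rats that breathed air in the same exposure run. Its members are the libraries whose titles name that dose and either agent, without 2 exposed libraries that the submitters labelled as outliers, which left 4 exposed and 6 air rats, 10 of the 60 samples in the series. All rats were male Fischer 344 animals (F344/DuCrl) of 3 months, held 3 to a cage, that spent 6 hours a day for 3 days in a whole-body chamber, and lungs were taken 1 day after the last exposure. RNA came from a piece of lung, so every value is a mixture of all cell types in that piece, and fewer cells of a type and less RNA per cell cannot be told apart. The series also holds sets at 11.25, 22.5, 45 and 180 mg/m3, each with its own air rats. The exposed rats carry the numbers 85, 86, 87 and 88 in their titles and the air rats 73 to 78, and values of the exposed rats are given in that order throughout. The labels do not say which rats shared a cage. The p-values measure the spread between animals within a group, estimated together over the 53 libraries of the series without an outlier label.

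Nanotubes are fibre-shaped carbon particles that deposit in the small airways and alveoli, where macrophages take them up. In rodents such fibres are known to set off a rapid inflammatory reaction in which epithelial cells and macrophages release chemokines, the proteins that draw leukocytes out of the blood, and secrete defence proteins into the airway lining. Division of alveolar and airway cells follows as damaged lining is replaced, and some of the replacing airway cells become mucus-secreting goblet cells or multiciliated cells.

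Total counts of the 10 libraries ran from 9693742 to 15087714. A level is given as counts per 1000000 of a library's total (CPM). All 10 libraries carried lung transcripts, with Sftpc (surfactant protein C) at 8088 to 11637 CPM, whereas the 2 libraries set aside, rats 89 and 90, had it at 126 and 45.4 CPM and had 25.6% and 27.2% of their counts in 20 listed liver genes. Exposed rat 88 held a trace of liver transcripts, with Alb (albumin) at 133.1 CPM against at most 34.6 CPM in the 9 other rats, and its part in genes of the liver is given beside them. No pair of libraries within a group agreed to within counting noise.

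Exposed and air rats differed in 1775 of the 15995 genes tested, which is 11.1%, by edgeR's quasi-likelihood test at a Benjamini-Hochberg adjusted p under 0.05. Of these, 1091 were higher in the exposed rats (6.82% of genes tested) and 684 were lower (4.28%). The rises were larger than the falls, as 264 genes rose more than 2-fold and 22 fell more than 2-fold. The 4 exposed rats all lay above the 6 air rats in 1411 genes (8.82%) and all below them in 455 genes (2.84%). The count of falls depended on single exposed rats, and was 383 without rat 86, 452 without rat 87 and 412 without rat 88, whereas 900 to 1085 genes were higher with any 1 rat left out. Effects below are log2 fold changes of exposed against air with the standard error (SE), and "rose" or "fell" means that the gene passed this test. Shares of the gene lists below stand beside the 6.82% higher and 4.28% lower of all genes tested. The lists were chosen with earlier results of these data known, so their shares are descriptive and no list was tested as a whole.

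**Figure D1:**
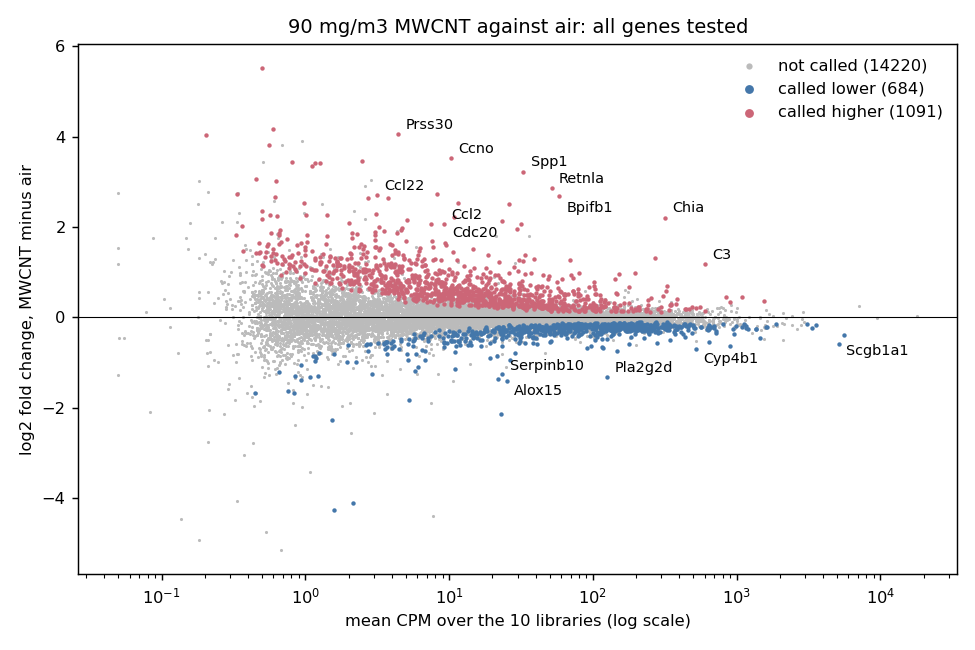
Each point is 1 of the 15995 genes tested, with its mean CPM over the 10 libraries on a log axis and its log2 fold change, exposed minus air, on the other axis. Red points are the 1091 genes called higher, blue points the 684 called lower, and most of the called points past 2-fold are red (264 against 22).

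Chemokine genes were among the groups in which most members rose: 17 of the 27 tested were higher and 0 were lower, against 6.82% of all genes higher, and the list median was 0.70 on the log2 scale (13 to 17 when 1 rat was left out). Ccl2, which recruits monocytes through Ccr2, measured 18.1, 13.9, 22.53 and 13.5 CPM in the exposed rats and 3.38 to 4.57 (median 3.99) CPM in the air rats (log2 fold change 2.07 ± 0.25, adjusted p = 2.26e-08). Its neighbour Ccl7, another monocyte attractant, measured 7.49, 6.46, 9.35 and 7.12 CPM against 0.797 to 1.47 (median 1.22) CPM in air (log2 fold change 2.65 ± 0.34, adjusted p = 7.12e-08). Neither gene overlapped between the groups, and rat 87 was the highest of the exposed rats for both.

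In the RefSeq gene order Ccl2, Ccl7, Ccl11 and Ccl12 lie next to each other on chromosome 10, and all 4 rose. Ccl11 (eotaxin, the eosinophil attractant) rose by 1.05 ± 0.27 (adjusted p = 0.00605), and Ccl12 by 1.66 ± 0.43 (adjusted p = 0.00546). Ccl12 was uneven, at 2.85, 0.637, 2.52 and 1.03 CPM in the exposed rats against 0.359 to 0.748 CPM in air. Rat 86 lay within the air range, and the adjusted p was 0.05 without exposed rat 87, which is not under the threshold.

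Ccl22, a ligand of Ccr4 made by dendritic cells and macrophages, had the most even response of the chemokines described here, at 6.33, 6.28, 6.30 and 6.81 CPM against 0.636 to 1.16 (median 0.974) CPM in air (log2 fold change 2.70 ± 0.20, adjusted p = 1.94e-14). Ccl17, the other Ccr4 ligand, rose by 1.86 ± 0.28 (adjusted p = 2.25e-06), and Ccr4 itself rose by 1.38 ± 0.32 (adjusted p = 0.00183). The neutrophil attractants Cxcl1 and Cxcl6 also rose. Cxcl1 measured 46.1, 53.9, 56.7 and 46.8 CPM against 14.4 to 26.3 (median 21.3) CPM (log2 fold change 1.25 ± 0.23, adjusted p = 0.000101). Cxcl6 measured 12.7, 12.6, 17.6 and 12.4 CPM against 0.832 to 6.26 (median 3.35) CPM (log2 fold change 2.06 ± 0.34, adjusted p = 1.34e-05). Exposed and air rats did not overlap for either gene. Members that did not pass the test included Ccl6 (-0.24 ± 0.12, adjusted p = 0.195) and Ccl5 (-0.26 ± 0.16, adjusted p = 0.336), a T cell attractant.

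Many inflammatory chemokine genes are known to carry binding sites for NF-kB, the transcription factor activated by IL-1 and TNF, close to their start. The promoter windows of Cxcl1 and Ccl7 are shown because they belong to the neutrophil and monocyte attractants above and contain letters of an NF-kB site. The letters searched were GGG, any 3 bases and TTCC, on both strands, and capitals mark them. They run from 250 bases before to 50 bases after the start of the gene and come from RefSeq, build GRCr8, which need not be the build of the counts.

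Cxcl1 (chr14:17479272-17479571, minus strand): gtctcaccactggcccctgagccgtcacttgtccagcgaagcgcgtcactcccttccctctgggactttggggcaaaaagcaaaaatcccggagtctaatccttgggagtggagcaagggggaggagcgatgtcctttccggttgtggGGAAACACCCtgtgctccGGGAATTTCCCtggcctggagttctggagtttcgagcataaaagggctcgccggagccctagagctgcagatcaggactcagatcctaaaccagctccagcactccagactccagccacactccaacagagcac

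Ccl7 (chr10:67513845-67514144, plus strand): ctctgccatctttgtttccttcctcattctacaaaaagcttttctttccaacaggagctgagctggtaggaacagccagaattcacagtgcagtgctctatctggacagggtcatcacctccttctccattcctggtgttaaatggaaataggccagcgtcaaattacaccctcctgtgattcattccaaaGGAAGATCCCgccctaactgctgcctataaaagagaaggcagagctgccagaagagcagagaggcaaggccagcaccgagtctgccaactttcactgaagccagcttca

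In the Cxcl1 window the letters start at -102, -84 and -83 relative to the gene's start, and the last 2 matches overlap on opposite strands. The Ccl7 window has 1 match, at -59. A match was found in 9 of the 21 chemokine genes with a single promoter entry (42.9%) and in 5.29% of the 24206 promoters of this length, which describes letters and not binding.

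Among cytokines and their receptors, 8 of 18 tested genes rose and 0 fell (5 to 7 when 1 rat was left out, with 5 without exposed rat 87), with a median of 0.31. Il1b, the inflammatory cytokine processed by the inflammasome, measured 45.9, 39.1, 49.8 and 39.2 CPM against 21.1 to 30.4 (median 22.4) CPM in air (log2 fold change 0.81 ± 0.16, adjusted p = 0.000406). Il1r2, the decoy receptor that binds IL-1 without signalling, rose more steeply, from 1.45 to 3.41 CPM in air to 7.46 to 9.59 CPM (log2 fold change 1.99 ± 0.22, adjusted p = 2.16e-09). Osmr, the receptor subunit for oncostatin M, rose by 0.61 ± 0.10 (adjusted p = 7.72e-06). Il33, an alarmin of epithelial and endothelial cells, did not pass the test (-0.14 ± 0.05, adjusted p = 0.0828), and Il6 and Tnf had too few counts to be tested.

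Of the chemokine receptors, 6 of 14 rose and 0 fell, with a median of 0.37 (4 to 6 when 1 rat was left out). They included Ccr3 (1.22 ± 0.21, adjusted p = 3.61e-05), the eotaxin receptor of eosinophils. Ccr3 measured 4.01, 3.28, 3.05 and 3.92 CPM against 0.538 to 2.09 (median 1.69) CPM, without overlap.

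The vessel wall carries selectins that slow leukocytes in the blood stream, and both tested selectins of endothelium rose. Sele (E-selectin) measured 6.06, 6.19, 4.71 and 4.13 CPM against 0.748 to 2.78 (median 1.40) CPM (log2 fold change 1.70 ± 0.25, adjusted p = 2.13e-06). Selp (P-selectin) measured 12.1, 9.47, 11.3 and 8.25 CPM against 3.03 to 6.18 (median 4.01) CPM (log2 fold change 1.16 ± 0.19, adjusted p = 8.43e-06). No exposed rat fell within the air range for either gene. Of the endothelial list as a whole 7 of 27 genes fell and 3 rose, with a median of -0.18, against 4.28% of all genes lower (the falls numbered 3 to 10 when 1 rat was left out, with 3 without exposed rat 88). The falls were small, as in Tek, the angiopoietin receptor (-0.26 ± 0.05, adjusted p = 0.000502), Sox17, an arterial transcription factor (-0.31 ± 0.07, adjusted p = 0.00233), and Aplnr, the apelin receptor (-0.31 ± 0.09, adjusted p = 0.0113).

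Genes of secreted defence and acute phase proteins mostly rose, with 14 of 17 tested genes higher, 0 lower and a median of 0.72 (13 to 14 when 1 rat was left out). Chia, the acidic chitinase, measured 573, 621, 540.0 and 676 CPM against 89.4 to 149.005 (median 130.9) CPM in air, a 4.63-fold difference (log2 fold change 2.21 ± 0.13, adjusted p = 3.40e-18). Retnla, a secreted product of alternatively activated macrophages and airway epithelium, measured 68.5, 79.3, 143.4 and 139.6 CPM against 8.65 to 23.9 (median 11.7) CPM (log2 fold change 2.87 ± 0.30, adjusted p = 2.06e-09). Rats 87 and 88 had the higher Retnla levels of the exposed rats, and all 4 lay above every air rat.

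Lcn2, which withholds iron from bacteria, measured 49.7, 57.9, 60.6 and 67.4 CPM against 12.1 to 15.6 (median 13.8) CPM (log2 fold change 2.06 ± 0.23, adjusted p = 5.64e-09). C3, the central complement component, measured 869, 932, 876 and 995 CPM against 367 to 443 (median 388) CPM (log2 fold change 1.18 ± 0.11, adjusted p = 2.43e-11). It had the largest rise in mean CPM among the genes called whose symbol carries a gene name. Chi3l1, a chitinase-like lectin, rose by 1.31 ± 0.12 (adjusted p = 5.15e-12), Cfb, factor B of the alternative complement pathway, by 0.44 ± 0.08 (adjusted p = 0.000111), and C7, a component of the membrane attack complex, by 0.46 ± 0.06 (adjusted p = 3.17e-07). Wfdc2, an airway protease inhibitor, rose by 0.70 ± 0.15 (adjusted p = 0.000919), and Lyz2 (lysozyme) did not pass the test (0.03 ± 0.11, adjusted p = 0.907).

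Several of these genes are also liver products, and rat 88 held a liver trace, scaled here by its Alb level. That trace would make up 1.41% of the C3 level and 0.198% of the Cfb level in rat 88, 17.1% for Hp (haptoglobin), 30.4% for Tf (transferrin), 38.9% for Orm1 and 49.8% for Hpx (hemopexin). Hp measured 67.5, 68.5, 76.2 and 93.05 CPM against 33.7 to 51.1 (median 42.8) CPM (log2 fold change 0.79 ± 0.14, adjusted p = 3.87e-05) and stayed called without rat 88 (log2 fold change 0.69, adjusted p = 0.000877). Hpx measured 9.62, 10.1, 9.74 and 18.6 CPM against 5.88 to 9.15 (median 6.95) CPM (log2 fold change 0.71 ± 0.19, adjusted p = 0.00953). Its adjusted p was 0.185 without exposed rat 88. Of the 19 liver genes tested, 2 rose (Hpx and Tf), 10.5% against 6.82% of all genes tested. The list median of 1.0 came to -0.16 without rat 88. A gene listed as Saal1 rose from 1.49 to 2.68 to 8.19 to 11.8 CPM (log2 fold change 2.15 ± 0.25, adjusted p = 6.44e-09), but RefSeq gives that symbol both to its own gene and as an older name of the adjacent acute phase gene Saa3, so its identity is uncertain.

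**Figure D2:**
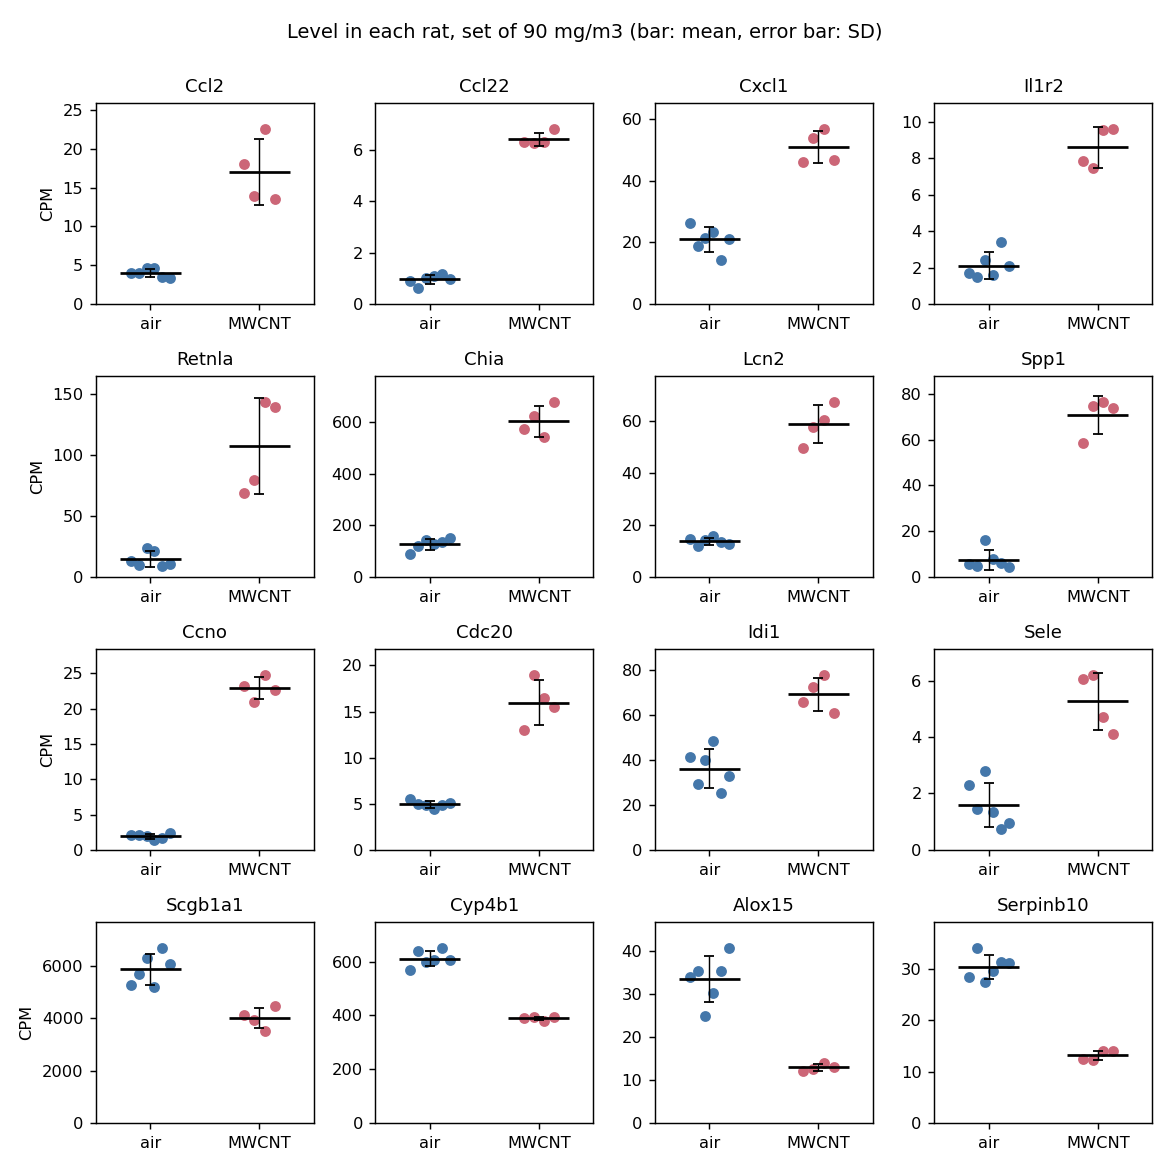
Levels in CPM of 16 genes in each of the 6 air rats (blue) and 4 exposed rats (red), with a bar at the mean and an error bar of 1 SD; each panel's axis starts at 0. In the first 12 genes every exposed rat lies above every air rat, and in Scgb1a1, Cyp4b1, Alox15 and Serpinb10 every exposed rat lies below.

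Macrophage genes moved in both directions. Spp1 (osteopontin), a secreted protein of macrophages in injured and scarring tissue, measured 58.4, 74.8, 76.3 and 73.9 CPM against 4.24 to 16.01 (median 5.86) CPM in air (log2 fold change 3.22 ± 0.39, adjusted p = 4.78e-08). Mmp12, the macrophage elastase, measured 38.7, 39.96, 47.5 and 42.3 CPM against 8.92 to 28.4 (median 18.4) CPM (log2 fold change 1.10 ± 0.26, adjusted p = 0.00244). Atp6v0d2, a proton pump subunit of osteoclasts and macrophages, rose by 1.03 ± 0.25 (adjusted p = 0.00304). None of these 3 genes overlapped between the groups. The list of lipid-associated and scar macrophage genes had 5 of 18 higher, 27.8% against 6.82% of all genes tested. In it 3 fell, 16.7% against 4.28%, and 10 of the 18 did not pass the test. The median was 0.01 (rises 4 to 5 when 1 rat was left out). Gpnmb and Fn1, 2 other genes of such macrophages, did not pass the test (0.15 ± 0.18, adjusted p = 0.699, and 0.10 ± 0.10, adjusted p = 0.633).

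Of the tissue macrophage genes 5 of 20 rose (25% against 6.82% of all genes tested) and 2 fell (10% against 4.28%). Their median was -0.04 (rises 5 to 7 when 1 rat was left out). The 3 genes of complement C1q, made by interstitial macrophages, rose together: C1qa by 0.55 ± 0.11 (adjusted p = 0.000358), C1qb by 0.67 ± 0.11 (adjusted p = 7.72e-06) and C1qc by 0.45 ± 0.09 (adjusted p = 0.000329). Ctsk, the collagen-degrading cathepsin, rose by 0.96 ± 0.24 (adjusted p = 0.00485). Abcg1, the cholesterol exporter of alveolar macrophages, fell from 287 to 356 CPM in air to 190.9 to 241 CPM (log2 fold change -0.58 ± 0.11, adjusted p = 0.000185).

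Monocyte and dendritic cell genes rose in 10 of 19 cases and fell in 0, with a median of 0.42 (8 to 10 when 1 rat was left out). Clec9a, a receptor of cross-presenting dendritic cells, measured 10.96, 10.1, 11.6 and 11.9 CPM against 5.16 to 7.98 (median 6.02) CPM (log2 fold change 0.83 ± 0.12, adjusted p = 6.59e-07). Irf4, a transcription factor of type 2 dendritic cells and of B cells, rose by 0.75 ± 0.11 (adjusted p = 9.32e-07), Irf8, that of type 1 dendritic cells, by 0.50 ± 0.07 (adjusted p = 5.01e-07), and Cd14, the endotoxin co-receptor of monocytes, by 0.69 ± 0.09 (adjusted p = 7.12e-08). In antigen presentation, 3 of 10 class II genes rose, 30% against 6.82% of all genes (2 to 4 when 1 rat was left out). Ciita, their master regulator, rose by 0.40 ± 0.09 (adjusted p = 0.00117), RT1-Bb, a class II chain, rose by 0.28 ± 0.07 (adjusted p = 0.00526), and Cd74, the invariant chain, did not pass the test (0.16 ± 0.09, adjusted p = 0.295).

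Among neutrophil genes 5 of 15 rose, 33.3% against 6.82% of all genes tested, and 0 fell. Their median was 0.31, and 3 to 6 rose when 1 rat was left out, with 3 without exposed rat 85. S100a9, an abundant neutrophil protein, measured 104.4, 95.3, 99.9 and 103.8 CPM against 44.5 to 91.1 (median 56.4) CPM (log2 fold change 0.64 ± 0.17, adjusted p = 0.00713), and its adjusted p was 0.0565 with the 10 libraries fitted alone. Cxcr2, the receptor for Cxcl1, rose by 0.58 ± 0.16 (adjusted p = 0.0112, and 0.0653 without exposed rat 85). Lcn2 and Il1r2, which epithelium and monocytes also express, stand in this list as well. Eosinophil, mast cell and basophil genes had 2 members higher and 2 lower of 9, each 22.2%, against 6.82% and 4.28% of all genes tested. Beside Ccr3, Hdc, the histamine-forming enzyme, rose by 0.50 ± 0.12 (adjusted p = 0.00202), and Alox15, a lipoxygenase of eosinophils and macrophages, fell. Lymphocyte lists stayed near the background: 1 of 23 T and NK cell genes rose (Icos, a T cell co-stimulator, 0.37 ± 0.12, adjusted p = 0.0292, not called without air rat 73, 74 or 78 or exposed rat 85, 86 or 87), and 1 of 15 B and plasma cell genes rose (Irf4). None of the 8 red blood cell genes passed edgeR's test in the model of all groups, whereas limma voom with sample quality weights called 4 of 8 lower, and edgeR on the 10 libraries alone 4 of 7. Their median was -0.45, and they made up 0.282% to 0.391% of counts in the exposed rats against 0.386% to 0.544% in air. The part of blood content in the results was not tested.

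Cell division had the largest share of members called of all 38 lists, which were chosen with earlier results of these data known. Of its 35 genes, 32 rose and 0 fell, with a median of 1.03 (30 to 33 when 1 rat was left out). Cdc20, which activates the anaphase-promoting complex in mitosis, measured 13.01, 18.9, 16.4 and 15.5 CPM against 4.39 to 5.48 (median 4.94) CPM in air (log2 fold change 1.66 ± 0.11, adjusted p = 1.27e-16). Mki67, the common marker of cycling cells, measured 33.2, 37.95, 33.9 and 32.2 CPM against 10.1 to 17.4 (median 14.5) CPM (log2 fold change 1.24 ± 0.11, adjusted p = 4.62e-12). The groups were separate for both genes, and rat 86 had the highest level of each. The mitotic kinase Cdk1 rose by 1.45 ± 0.13 (adjusted p = 1.28e-11), its cyclin Ccnb1 by 1.45 ± 0.17 (adjusted p = 5.33e-09), the spindle motor Kif20a by 1.54 ± 0.18 (adjusted p = 8.77e-09) and the replication licensing factor Cdc6 by 1.44 ± 0.26 (adjusted p = 5.42e-05). The 3 members that did not pass the test all serve DNA replication: Cdc45 (0.48 ± 0.17, adjusted p = 0.0589), Tyms (0.26 ± 0.13, adjusted p = 0.233) and Mcm7 (0.14 ± 0.06, adjusted p = 0.101).

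Genes that peak in mitosis are known to share a CCAAT box and, often, the cell cycle homology element TTTGAA near their start. The windows of Cdc20 and Ccnb1, 2 mitotic genes of the list, are shown for these letters, in capitals and searched on both strands, again from RefSeq build GRCr8.

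Cdc20 (chr5:137255750-137256049, minus strand): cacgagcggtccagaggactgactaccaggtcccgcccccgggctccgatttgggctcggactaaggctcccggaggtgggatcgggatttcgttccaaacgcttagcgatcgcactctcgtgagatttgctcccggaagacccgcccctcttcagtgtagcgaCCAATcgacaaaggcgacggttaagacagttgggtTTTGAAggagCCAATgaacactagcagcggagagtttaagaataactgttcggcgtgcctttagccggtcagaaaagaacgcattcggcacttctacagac

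Ccnb1 (chr2:33655176-33655475, minus strand): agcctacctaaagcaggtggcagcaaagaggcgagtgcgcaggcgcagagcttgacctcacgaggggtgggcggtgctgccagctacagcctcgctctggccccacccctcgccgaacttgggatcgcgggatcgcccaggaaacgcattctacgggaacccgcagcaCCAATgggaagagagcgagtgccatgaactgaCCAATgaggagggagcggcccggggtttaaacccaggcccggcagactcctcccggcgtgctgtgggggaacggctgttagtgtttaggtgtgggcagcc

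Cdc20 has CCAAT at -86 and -41 and TTTGAA at -51, and Ccnb1 has CCAAT at -82 and -50 and no TTTGAA in this window. CCAAT was present in 20 of the 27 cell division genes with a promoter entry (74.1%) against 37.8% of all 24206 promoters, and TTTGAA in 11 of 27 (40.7%) against 18.1%. Of the cholesterol synthesis list, 14 of the 16 members with a promoter entry held CCAAT (87.5%). The letters searched for a sterol regulatory element (TCAC, any base and CCAC, on both strands) were in 0 of these 16 and in 1.12% of all promoters.

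Airway precursors become multiciliated by making many centrioles at once, under the control of Gmnc and Mcidas and with Ccno, Foxn4, Ccdc67 (Deup1) and Plk4 in the centriole step. Of 18 genes of this programme 11 rose and 0 fell, with a median of 0.71 (11 also without any 1 of the 10 rats). Ccno measured 23.2, 20.9, 24.7 and 22.7 CPM against 1.34 to 2.43 (median 2.04) CPM (log2 fold change 3.53 ± 0.15, adjusted p = 1.05e-24), the smallest adjusted p of all genes tested. Mcidas measured 3.65, 2.73, 2.58 and 2.17 CPM against 0.173 to 0.299 (median 0.261) CPM (log2 fold change 3.42 ± 0.33, adjusted p = 5.55e-11). These 2 genes are neighbours on chromosome 2 in the RefSeq order.

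Foxn4 measured 6.15, 4.91, 4.57 and 6.19 CPM against 0.0866 to 0.807 (median 0.521) CPM (log2 fold change 3.46 ± 0.30, adjusted p = 3.44e-12). Ccdc67, a scaffold of the deuterosome, rose by 2.21 ± 0.14 (adjusted p = 7.39e-17). Stil and Plk4, which build centrioles in dividing cells as well, rose by 1.87 ± 0.17 (adjusted p = 4.62e-12) and 1.69 ± 0.14 (adjusted p = 5.65e-13). The later regulator Foxj1 rose less, by 0.85 ± 0.14 (adjusted p = 1.35e-05), and Rfx3 did not pass the test (0.21 ± 0.09, adjusted p = 0.138). In the motile cilium itself 11 of 22 genes rose and 0 fell, with a median of 0.45 (9 to 12 when 1 rat was left out). The assembly factor Lrrc6 rose by 1.20 ± 0.19 (adjusted p = 5.52e-06), the dynein arm gene Dnai2 by 0.91 ± 0.15 (adjusted p = 1.46e-05) and the tektin Tekt1 by 0.76 ± 0.14 (adjusted p = 0.000146). Tppp3 of mature ciliated cells did not pass the test (-0.29 ± 0.11, adjusted p = 0.0888). Limma voom with sample quality weights and edgeR on the 10 libraries alone each called Tppp3 lower and 15 of the 22 genes higher. The letters of an X-box, the site of RFX factors (GTT, any base, CC, any 2 bases and GG, on both strands), were in 6 of 17 motile cilium promoters (35.3%) and 6.13% of all promoters.

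Goblet and mucous genes were higher in 7 of 16 cases and lower in 0 (4 to 7 when 1 rat was left out, with 4 without air rat 74 or air rat 77 or exposed rat 87). The count depended on the filter and the method. It was 3 of 12 in the 10 libraries fitted alone, where Muc5ac was not tested, and 5 of 19 without a filter on low counts. Limma voom with sample quality weights called 9 of 16 higher. Muc5ac, the inducible airway mucin, gave 1 count in all 6 air rats and 56 counts in the 4 exposed rats, at 1.78, 0.364, 0.994 and 1.75 CPM, which is a ratio of 78.4 with an exact 95% interval of 13.5 to 3153 for counting error (adjusted p = 9.35e-08). Bpifb1, an antimicrobial protein of mucous cells, measured 159.8, 75.9, 119.8 and 122.6 CPM against 3.41 to 37.9 (median 13.6) CPM (log2 fold change 2.69 ± 0.53, adjusted p = 0.000289). Slc26a4 (pendrin), which exchanges anions into airway fluid, measured 34.2, 42.96, 56.1 and 41.1 CPM against 5.02 to 15.1 (median 8.87) CPM (log2 fold change 2.14 ± 0.29, adjusted p = 4.31e-07). The exposed rats lay above the air rats in all 3 genes, and rat 86 was the lowest of them in Muc5ac and Bpifb1. Muc5b, the constitutive airway mucin, was wide in both groups, at 104.3, 25.6, 67.7 and 56.9 CPM against 5.11 to 41.2 (median 14.3) CPM, and did not pass the test (1.8 ± 0.66, adjusted p = 0.0675).

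Club cells, the secretory cells of the small airways, and their detoxifying enzymes had lower transcript levels in part: 6 of 19 genes fell and 0 rose, with a median of -0.34 (3 to 5 when 1 rat was left out, with 3 without air rat 77 or exposed rat 86 or exposed rat 87). Scgb1a1, the club cell secretory protein, measured 4105, 3914, 3526 and 4463 CPM against 5189.9 to 6664 (median 5882) CPM (log2 fold change -0.58 ± 0.15, adjusted p = 0.00492). It had the largest fall in mean CPM among the genes called whose symbol carries a gene name. Cyp4b1, a lung cytochrome P450, measured 389, 394, 378 and 392 CPM against 569.9 to 649 (median 605) CPM (log2 fold change -0.69 ± 0.06, adjusted p = 5.65e-13). Fmo2, the lung flavin monooxygenase, measured 747, 629, 624 and 736 CPM against 866 to 1189 (median 1035) CPM (log2 fold change -0.63 ± 0.12, adjusted p = 0.000237). The exposed rats were below every air rat in all 3. Cyp2b1, another P450 of club cells, did not pass the test (0.02 ± 0.08, adjusted p = 0.936), nor did the dioxin-responsive Cyp1a1 (0.33 ± 0.33, adjusted p = 0.633) or Scgb3a2 (0.60 ± 0.23, adjusted p = 0.0822).

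Alveolar type 2 genes, which make surfactant, had 1 rise and 1 fall among 16, a share near the background, and a median of 0.02. Sftpc measured 8088, 9778, 9899.6 and 10457 CPM against 8375 to 11637 (median 9168) CPM and did not pass the test (-0.01 ± 0.12, adjusted p = 0.977). Slc39a8, a zinc and manganese importer, rose by 0.51 ± 0.08 (adjusted p = 1.62e-05). The fall was Sftpb (-0.24 ± 0.08, adjusted p = 0.0305), with adjusted p of 0.0543 without air rat 75, 0.1 without air rat 76, 0.188 without exposed rat 85, 0.0592 without exposed rat 87. Alveolar type 1 genes, of the flat gas-exchange cells, fell in 5 of 16 cases and rose in 0 (falls 4 to 6 when 1 rat was left out), by small amounts. Cav1, the caveolar coat protein that endothelium also carries, measured 1274, 1247, 1165 and 1284 CPM against 1339 to 1634 (median 1413) CPM (log2 fold change -0.26 ± 0.06, adjusted p = 0.00203). Emp2, a membrane protein of type 1 cells, fell by 0.14 (SE 0.04, adjusted p = 0.00437). Ager, the receptor that marks type 1 cells, did not pass the test (-0.16 ± 0.08, adjusted p = 0.249). In the list of epithelial injury and repair, 3 of 18 rose (16.7% against 6.82% of all genes tested) and 1 fell (5.56% against 4.28%). Krt15, a basal cell keratin, measured 21.7, 12.8, 16.7 and 12.6 CPM against 2.96 to 6.82 (median 5.06) CPM (log2 fold change 1.60 ± 0.32, adjusted p = 0.00029). Krt8, the keratin of transitional alveolar cells, lay above every air rat in all 4 exposed rats by a small amount and did not pass the test (0.21 ± 0.08, adjusted p = 0.0904).

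**Figure D3:**
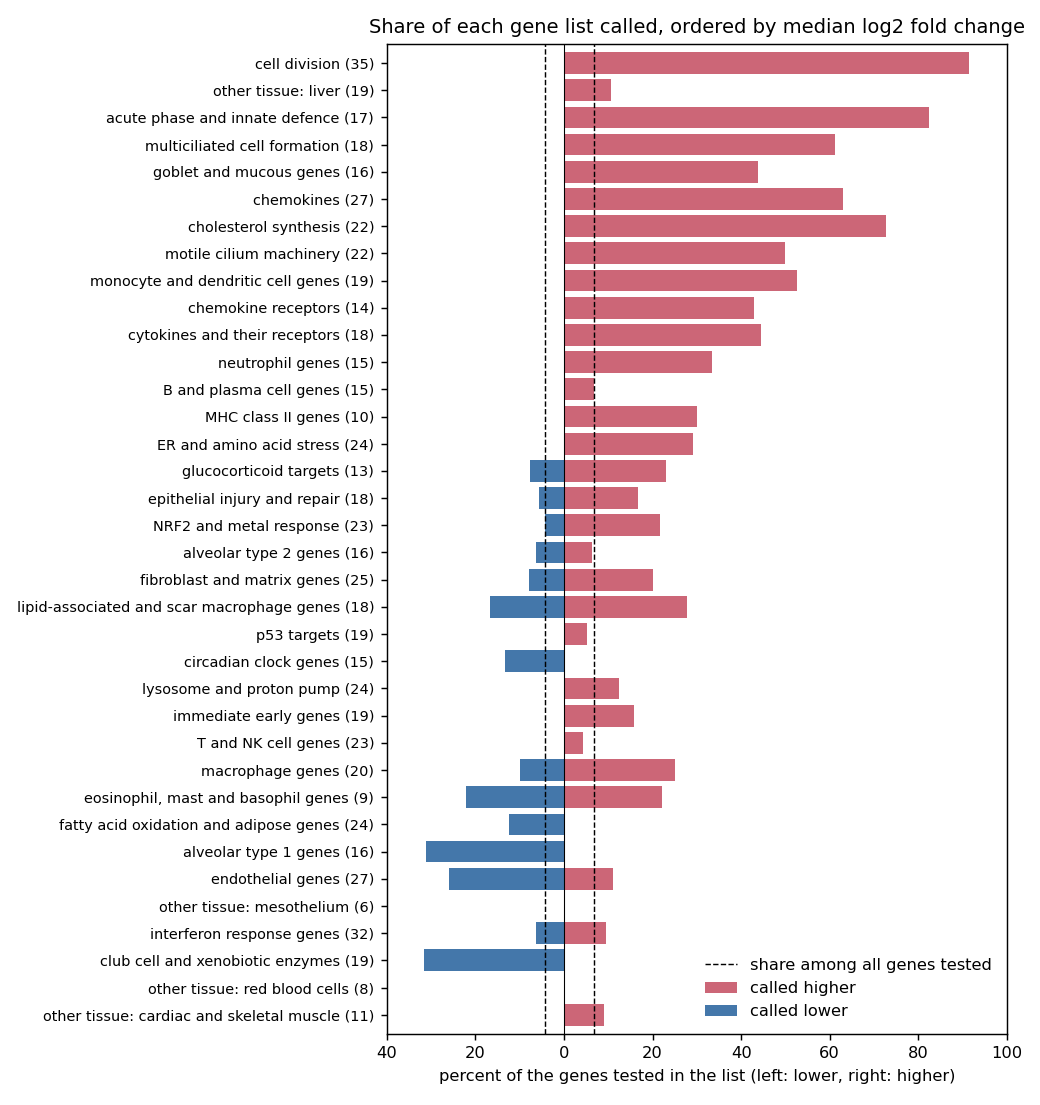
Percent of the genes tested in each list that were called higher (red, to the right) or lower (blue, to the left), for lists of at least 6 genes tested, with that number in brackets and lists ordered by median log2 fold change. Dashed lines mark the 6.82% higher and 4.28% lower among all genes tested. Cell division (32 of 35) and acute phase and innate defence (14 of 17) reach farthest to the right. The lists were chosen with earlier results of these data known.

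Of 25 fibroblast and matrix genes 5 were higher, 20% against 6.82% of all genes tested, and 2 were lower, 8% against 4.28%. The median was 0.01 (rises 5 to 6 when 1 rat was left out). Tnn (tenascin N), a matrix glycoprotein, measured 1.78, 2.46, 2.98 and 2.58 CPM against 0.0897 to 0.433 (median 0.216) CPM (log2 fold change 3.34 ± 0.38, adjusted p = 5.64e-09). Timp1, the metalloproteinase inhibitor, rose by 0.67 ± 0.12 (adjusted p = 5.96e-05). All exposed rats were above all air rats in both genes. The fibrillar collagens did not pass the test (Col1a1 -0.08 ± 0.09, adjusted p = 0.695; Col3a1 0.04 ± 0.07, adjusted p = 0.816), and Postn (periostin) fell by 0.24 (SE 0.04, adjusted p = 7.22e-05).

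Cholesterol synthesis genes rose along most of the pathway: 16 of 22 genes were higher and 0 lower, with a median of 0.45 (12 to 17 when 1 rat was left out). Idi1, an isomerase of the pathway, measured 66.03, 72.4, 77.8 and 60.97 CPM against 25.4 to 48.4 (median 36.3) CPM (log2 fold change 0.91 ± 0.11, adjusted p = 1.00e-08). Hmgcs1, which feeds the rate-limiting reductase, measured 116.03, 132.7, 151.1 and 135.3 CPM against 67.7 to 91.01 (median 82.9) CPM (log2 fold change 0.71 ± 0.10, adjusted p = 1.93e-06). Idi1 and Hmgcs1 did not overlap between the groups, and Cyp51 (0.66 ± 0.08, adjusted p = 5.59e-08) and Fdps (0.53 ± 0.09, adjusted p = 2.58e-05), further along the pathway, also rose. Srebf2, the transcription factor of the pathway, did not pass the test (0.12 ± 0.06, adjusted p = 0.21).

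Of 23 genes of antioxidant and metal response 5 were higher, 21.7% against 6.82% of all genes tested. In this list 1 was lower, 4.35% against 4.28%, and the median was 0.07. Those that rose included Slc7a11, the cystine importer, at 4.28, 4.91, 3.51 and 3.51 CPM against 0.538 to 1.29 (median 1.20) CPM (log2 fold change 1.84 ± 0.22, adjusted p = 1.20e-08). The metal-binding Mt2A measured 5.79, 5.73, 7.22 and 8.46 CPM against 0.994 to 2.999 (median 2.30) CPM (log2 fold change 1.61 ± 0.26, adjusted p = 1.12e-05). Sod2, the mitochondrial superoxide dismutase, measured 262, 280.1, 297 and 289 CPM against 124.1 to 155.03 (median 139.2) CPM (log2 fold change 0.99 ± 0.08, adjusted p = 1.76e-13). The extracellular Sod3 fell by 0.28 (SE 0.06, adjusted p = 0.00158). The common NRF2 targets Hmox1 (0.20 ± 0.13, adjusted p = 0.404) and Nqo1 (-0.09 ± 0.27, adjusted p = 0.899) did not pass the test.

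Of 19 immediate early genes 3 rose, 15.8% against 6.82% of all genes tested. Among them was the nuclear receptor Nr4a3, at 7.40, 7.10, 6.96 and 6.29 CPM against 1.75 to 3.14 (median 2.28) CPM (log2 fold change 1.49 ± 0.16, adjusted p = 2.26e-09). Myc rose as well (0.50 ± 0.10, adjusted p = 0.00015). Of 24 genes of ER and amino acid stress 7 rose, 29.2% against 6.82% of all genes tested (3 to 10 when 1 rat was left out, with 3 without exposed rat 87, 4 without exposed rat 88), and limma voom with sample quality weights called 12 of 24. They included the serine synthesis enzyme Phgdh (0.71 ± 0.16, adjusted p = 0.00142). The chaperone Hspa5 did not pass the test (0.20 ± 0.10, adjusted p = 0.21). Of 19 p53 targets 1 rose, 5.26% against 6.82% of all genes tested. That gene was Mdm2 (0.17 ± 0.05, adjusted p = 0.0148, and 0.0514 without exposed rat 86). The cell cycle inhibitor Cdkn1a did not pass the test (0.18 ± 0.20, adjusted p = 0.671). In the lysosome list 3 of 24 rose, 12.5% against 6.82% of all genes tested, including Atp6v0d2 and Ctsk named above. Of 24 genes of fatty acid oxidation and fat storage 3 fell, 12.5% against 4.28% of all genes tested, and 0 rose. The falls included the peroxisomal transporter Abcd2 (-0.89 ± 0.14, adjusted p = 3.07e-06) and the uncoupling protein Ucp3 (-0.82 ± 0.16, adjusted p = 0.000323). Of 15 clock genes 2 fell, 13.3% against 4.28% of all genes tested. Their falls numbered 0 to 3 when 1 rat was left out, with 0 without exposed rat 87 or exposed rat 88. Of 13 glucocorticoid targets 3 rose, 23.1% against 6.82%, namely Lcn2, Mt1a and Mt2A, and 1 fell, 7.69% against 4.28%.

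Among lists for tissue that a piece of lung could carry along, 1 of 11 muscle genes rose, 9.09% against 6.82% of all genes tested. That gene was Acta1 (1.24 ± 0.34, adjusted p = 0.00901), against a list median of -0.49. No gene was called of the 4 thymus and lymph node genes, the 6 mesothelial genes or the 5 genes of trachea and oesophagus. Muscle and mesothelial content varied among the air rats, and its part in single genes was not tested.

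The interferon response list had 3 of 32 genes higher, 9.38% against 6.82% of all genes tested. It had 2 lower, 6.25% against 4.28%, and its median was -0.30. Air rat 78 stood apart in this list, with a median of 0.61 on the scale of log2(CPM + 0.5) relative to the air mean, against -0.36 to -0.13 in the 5 other air rats and -0.35 to -0.08 in the exposed rats. Without air rat 78 the median of the list came to -0.07 with 3 genes higher and 0 lower. None was lower either without exposed rat 85, 86 or 88, and 4, 4 and 5 were lower without air rats 73, 74 and 75. Mx2, an antiviral GTPase, measured 304 CPM in air rat 78 and 88.4 to 116 CPM in the other air rats, against 72.9, 86.01, 111.5 and 77.6 CPM in the exposed rats (log2 fold change -0.69 ± 0.23, adjusted p = 0.0381). Its fold change was -0.28 and adjusted p = 0.337 without air rat 78, and adjusted p was 0.123, 0.0929 and 0.117 without exposed rats 85, 86 and 88. The higher members included the interferon-inducible chemokine Cxcl10, at 9.71, 5.19, 6.83 and 3.71 CPM against 1.73 to 3.29 (median 2.34) CPM (log2 fold change 1.37 ± 0.29, adjusted p = 0.000774). They also included the chemokine Cxcl11 (1.87 ± 0.50, adjusted p = 0.00883, and 0.0544 without exposed rat 87) and Ifit1 (0.99 ± 0.23, adjusted p = 0.00229).

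**Figure D4:**
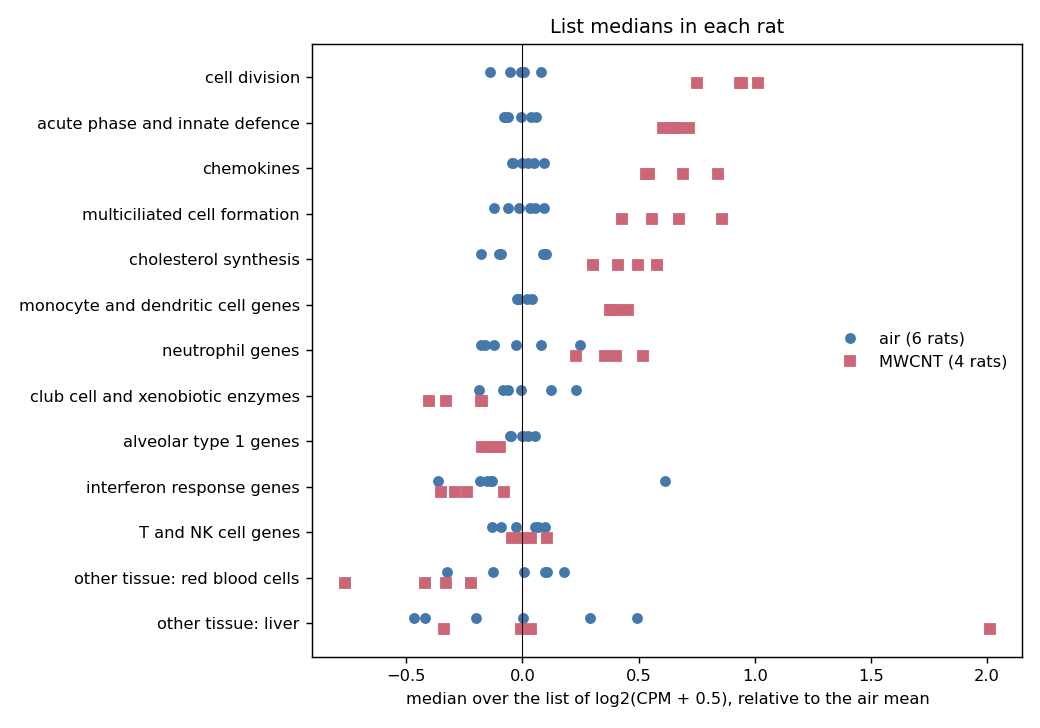
Median of each list in each rat, on the scale of log2(CPM + 0.5) relative to the air mean of each gene, for 6 air rats (blue circles) and 4 exposed rats (red squares). The exposed rats lie above all air rats for cell division, acute phase, chemokine, multiciliated, cholesterol, and monocyte and dendritic cell genes. They lie below all air rats for alveolar type 1 genes. Air rat 78 lies at 0.61 for interferon genes, and exposed rat 88 lies at 2.01 for liver genes.

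Among named genes averaging 1 CPM or more whose groups did not overlap, the largest falls were smaller than the largest rises. Alox15 measured 12.03, 12.5, 13.98 and 12.998 CPM against 24.8 to 40.5 (median 34.5) CPM (log2 fold change -1.40 ± 0.14, adjusted p = 5.94e-11). Pla2g2d, a secreted phospholipase of dendritic cells and macrophages, measured 55.8, 65.99, 83.3 and 64.8 CPM against 140.1 to 194.8 (median 161.5) CPM (log2 fold change -1.32 ± 0.14, adjusted p = 2.93e-09). Serpinb10, a serine protease inhibitor of myeloid cells, measured 12.4, 12.2, 13.98 and 13.9 CPM against 27.4 to 33.99 (median 30.4) CPM (log2 fold change -1.24 ± 0.13, adjusted p = 5.66e-10). In these 3 genes every exposed rat lay below the lowest air rat. Slc15a2, a peptide transporter, measured 17.5, 19.3, 15.8 and 17.4 CPM against 29.6 to 38.2 (median 32.4) CPM (log2 fold change -0.94 ± 0.10, adjusted p = 1.17e-09). Tnfrsf8 (CD30) fell by 1.14 (SE 0.20, adjusted p = 3.73e-05), Adhfe1, a mitochondrial dehydrogenase, by 0.95 (SE 0.16, adjusted p = 2.46e-05), Mlc1 by 1.18 (SE 0.23, adjusted p = 0.00019) and the potassium channel Kcnn3 by 0.93 (SE 0.18, adjusted p = 0.000277). Another 3 symbols that met the rule for the largest falls carry no gene name and were passed over.

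In CPM, large falls after Scgb1a1 were those of genes with high counts. Gsn (gelsolin, which severs actin filaments) measured 5070.2, 4513, 4707 and 4772 CPM against 5639 to 6864 (median 6035) CPM (log2 fold change -0.39 ± 0.06, adjusted p = 1.50e-05). Txnip, the thioredoxin inhibitor, measured 1296, 1107, 1205 and 1187 CPM against 1443 to 1767 (median 1613) CPM (log2 fold change -0.46 ± 0.09, adjusted p = 0.000241). Sec14l3, a lipid-binding protein of airway epithelium, measured 838, 813, 789 and 892 CPM against 1009 to 1175 (median 1026) CPM (log2 fold change -0.37 ± 0.08, adjusted p = 0.00157). Each of the 3 was below the air range in all exposed rats.

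Several large rises had no place in the lists. Prss30, a trypsin-like protease, measured 9.001, 7.46, 12.1 and 12.3 CPM against 0.273 to 0.832 (median 0.651) CPM (log2 fold change 4.05 ± 0.31, adjusted p = 2.83e-14). Prss22, its neighbour in the RefSeq order, rose by 1.65 ± 0.34 (adjusted p = 0.0005). Tmc5, a transmembrane channel-like protein, measured 16.4, 14.5, 17.3 and 19.4 CPM against 1.34 to 3.29 (median 2.69) CPM (log2 fold change 2.74 ± 0.33, adjusted p = 2.20e-08). Calcb, the precursor of a calcitonin gene-related peptide, measured 2.67, 1.001, 2.12 and 4.64 CPM against 0 to 0.693 (median 0.145) CPM (log2 fold change 3.41 ± 0.54, adjusted p = 6.45e-06). The exposed rats exceeded the air rats in these genes, and Calcb differed most among them, with rat 88 highest and rat 86 lowest.

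For some called genes the exposed rats disagreed with each other. Lrrc23, a radial spoke protein, measured 11.9, 23.9, 12.99 and 2.79 CPM against 1.58 to 6.66 CPM in air (log2 fold change 1.56 ± 0.49, adjusted p = 0.0288). Rat 88 lay in the air range, and the adjusted p was 0.0718 without air rat 77, 0.0606 without air rat 78, 0.225 without exposed rat 86, 0.0594 without exposed rat 87. Ndst2, a heparan sulfate enzyme, measured 3.56, 2.55, 0.265 and 1.44 CPM against 0.249 to 0.538 CPM (log2 fold change 2.26 ± 0.63, adjusted p = 0.0112). Rat 87 lay in the air range, and adjusted p was 0.0967 without exposed rat 85. Clca1, a goblet cell metalloprotease, measured 89.4, 17.2, 45.8 and 55.6 CPM against 2.18 to 26.2 CPM (log2 fold change 2.51 ± 0.86, adjusted p = 0.0498). Leaving out any 1 rat except air rat 78 or exposed rat 86 ended the call, with adjusted p of 0.062 to 0.155. Rmrp, the RNA of a mitochondrial processing ribonuclease, had the largest fall by the naming rule, at 0.535, 0.273, 0.663 and 0.309 CPM against 1.04 to 3.98 (median 2.02) CPM (log2 fold change -2.28 ± 0.66, adjusted p = 0.0162). Its adjusted p was 0.062 without exposed rat 86, 0.0538 without exposed rat 88. Rmrp also fell at 22.5 mg/m3 (-1.83 ± 0.59, adjusted p = 0.0457). It did not pass the test at 11.25, 45 or 180 mg/m3 (-0.37 ± 0.71, 2.14 ± 0.93 and -0.23 ± 0.86). Star, the mitochondrial cholesterol carrier, fell by 1.26 (SE 0.42, adjusted p = 0.0437), and the call ended with any 1 of the 10 rats left out (adjusted p 0.0505 to 0.131). The call of Olr1637, an olfactory receptor, also ended without air rat 73 or exposed rats 85, 86 or 87 (-0.90 ± 0.28, adjusted p = 0.0251, up to 0.0876).

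The sets at 45 mg/m3 (6 exposed and 3 air rats) and 180 mg/m3 (5 exposed and 6 air rats) have their own air rats, so their effects share no sample with those at 90 mg/m3. Of the 1091 genes higher at 90 mg/m3, 911 were also higher at 180 mg/m3, which is 83.5% of the first list and 47.4% of the 1921 genes of the second, against 12% of all genes tested that were higher at 180 mg/m3. At 45 mg/m3 433 of them were higher, 39.7% of the genes at 90 mg/m3 and 81.5% of the 531 at 45 mg/m3, against 3.32% of all genes tested. Of the 684 genes lower at 90 mg/m3, 554 were lower at 180 mg/m3 (81.0%, and 31.9% of 1739) and 165 at 45 mg/m3 (24.1%, and 49.4% of 334). Over all genes tested, 10.9% were lower at 180 mg/m3 and 2.09% at 45 mg/m3. Another 256 genes were called at 90 mg/m3 and in neither neighbouring set, which does not show that their effects differ.

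Tested directly, no gene passed the test for a different effect at 90 and 180 mg/m3 (edgeR, 0 of 15995 called, smallest adjusted p 0.329, with 892 genes at an unadjusted p under 0.05), nor at 90 and 45 mg/m3 (0 called, smallest adjusted p 0.0947, 750 genes). DESeq2 called 0 genes for the first difference and 1 for the second, and limma voom with sample quality weights 2 and 9. Effects of single genes were placed in different ways across the sets, in which dose and exposure run differ together. Ccl22 had 1.72 ± 0.25 at 45 mg/m3, 2.70 ± 0.20 at 90 mg/m3 and 3.65 ± 0.20 at 180 mg/m3, and Spp1 had 1.45 ± 0.47, 3.22 ± 0.39 and 4.58 ± 0.41. With intervals not adjusted for the number of genes, the difference of the effect at 90 mg/m3 from that at 180 mg/m3 was -0.95 (95% interval -1.53 to -0.37, adjusted p = 0.67) for Ccl22 and -1.36 (95% interval -2.49 to -0.22, adjusted p = 0.803) for Spp1. Ccno had 3.37 ± 0.18, 3.53 ± 0.15 and 3.17 ± 0.14 at the 3 doses, a difference of 0.35 (95% interval -0.07 to 0.78, adjusted p = 0.951) between the upper 2, and Chia had 1.91 ± 0.15, 2.21 ± 0.13 and 2.26 ± 0.12, a difference of -0.05 (95% interval -0.39 to 0.29, adjusted p = 1). Serpinb10 had -0.76 ± 0.13, -1.24 ± 0.13 and -2.05 ± 0.13, and its difference of 0.80 (95% interval 0.44 to 1.16, adjusted p = 0.329) was among the 3 smallest p-values of that contrast without passing the adjustment.

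**Figure D5:**
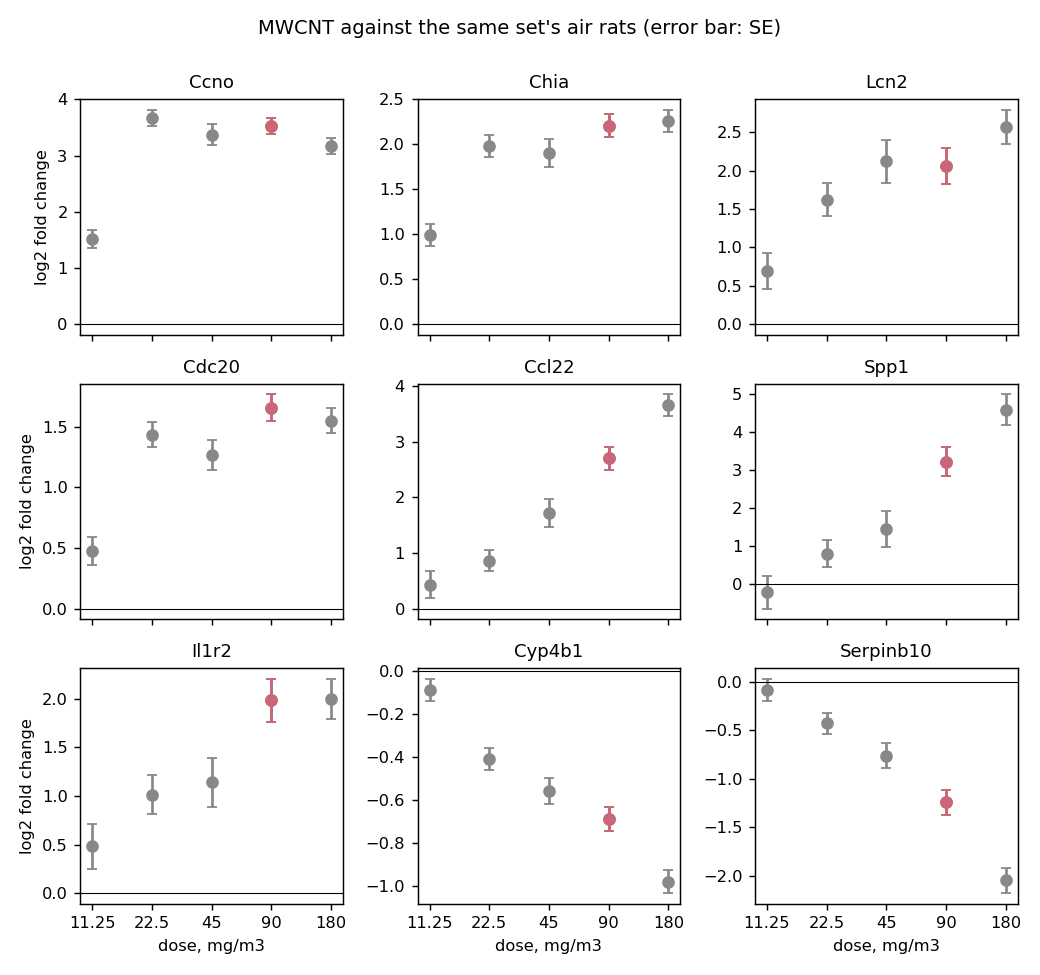
Log2 fold change of exposed rats against the air rats of the same set at the 5 cumulative doses in mg/m3, with error bars of 1 SE, for 9 genes; the red point is 90 mg/m3, and the vertical axes differ. At 90 mg/m3 Ccl22, Spp1 and Serpinb10 lie between their values at 45 and 180 mg/m3, and none of the differences from those 2 doses passed the test. Dose and exposure run differ together between the sets and cannot be told apart.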

How the data were processed

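Lung RNA was measured by sequencing of poly(A)-selected, stranded libraries. The authors deposited a table of raw counts of reads per gene symbol for 60 libraries. The submitters' processing notes name bcl2fastq 2.19, Trimmomatic 0.35, HISAT2 2.1.0, SAMtools 1.8, HTSeq 0.11.2 and Cufflinks, and the genome build is not given in the sources used here. Genes with a minimum count of 10 by edgeR's filter (15995 of 30045) were fitted with edgeR 4.0.16 (quasi-likelihood test, TMM scaling, R 4.3.3) in 1 model of 10 groups over the 53 libraries without an outlier label, and p-values were adjusted by Benjamini-Hochberg over all genes tested. Effects at 2 doses were compared by a contrast in that model. Total counts of the 10 libraries described were 9693742 to 15087714.

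The comparison and the gene lists were chosen with earlier results of these data known. Named genes were the 12 largest rises and falls with a mean of at least 1 CPM and no overlap between groups, the 10 largest called changes each way in mean CPM, up to 5 called members each way and 3 others of each list, the 5 called genes most uneven among exposed rats, and a fixed set of lung and inflammation genes. Of the genes that met this rule, most of those whose call ended when 1 rat was left out are only counted. Ccl5, Ccl11, Ccl17, Cdkn1a, Col1a1, Hp, Irf8, Nqo1, Plk4, Prss22 and Saal1 are outside the rule and were chosen after their values were seen. Tests were also run with DESeq2 1.42.0 and with limma 3.58.1, with other filters and scaling, with all 60 libraries, with the 10 libraries alone, and without each library in turn. The fitting code was checked on simulated data. Some genes that met the rule are not reported here. Counting intervals cover counting error only.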

Additional observations from a re-analysis of the deposited data

Results flagged for a closer look

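In 18 of 288 pairs of a named gene and a group, and in 5 of 76 pairs of a list and a group, 1 rat lay farther from its group than a Dixon test at 95% allows, and chance flags about 1 in 20 groups. Exposed rat 88 was high for Alb (133 CPM, others 6.10 to 18.9), Hpx (18.6 CPM, others 9.62 to 10.1), C1qb (60.3 CPM), Ccl22 (6.81 CPM) and Cdkn1a (72.0 CPM), and its liver list median was 2.01. Exposed rat 87 was high for Ccr4 (1.46 CPM), Cxcl6 (17.6 CPM) and Tnfrsf8 (8.35 CPM). Exposed rat 85 was low for Lyz2 (15701 CPM, others 19441 to 19912) and Spp1 (58.4 CPM), and exposed rat 86 had the lowest median of the cytokine list (0.25).

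Among the air rats, rat 78 was high for Mx2 (304 CPM) and the interferon list median (0.61). Air rat 76 was high for Clec9a (7.98 CPM) and Sftpc (11637 CPM), and low for Slc7a11 (0.538 CPM) and for the medians of chemokine receptors (-0.16) and of B and plasma cell genes (-0.28). Air rat 75 was high for Spp1 (16.0 CPM) and Star (4.77 CPM), air rat 77 for Sec14l3 (1175 CPM), and air rat 73 held the only Muc5ac count of the air group (0.0996 CPM). In the 2 exposed libraries left out, liver genes took 25.6% (rat 89) and 27.2% (rat 90) of counts, against 0.0226% to 0.0321% in the air rats.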

How the results depend on the processing

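Of the genes named, 117 were called. In 48 of these the gene kept its direction but lost the call in at least 1 alternative run, and in 69 this did not happen. The 69 include Adhfe1, Mlc1, C7 and RT1-Bb, which were reversed with all 60 libraries, and C7 and RT1-Bb were not called there. They also include genes that some runs did not test, such as Muc5ac and Acta1. Another 27 named genes were not called, and 16 of these were in at least 1 alternative. DESeq2's size factors and the stricter filter ended no call. DESeq2 ended 1 (Clca1), no filter 4 (Clca1, Icos, Mx2 and Star), limma voom 2 (Mx2 and Ndst2) and the 10 libraries fitted alone 6 (Clca1, Icos, Lrrc23, Mx2, S100a9 and Sftpb). Limma voom added calls for Ager, Cd74, Cdc45, Il33, Krt8, Mcm7, Muc5b, Scgb3a2, Srebf2 and Tppp3. The 10 libraries fitted alone added Il33, Krt8 and Tppp3. Limma voom with sample quality weights called 1774 genes higher and 1415 lower, against 1091 and 684, and for the dose differences 2 higher against 180 mg/m3, and 8 higher and 1 lower against 45 mg/m3. DESeq2 called 1 gene lower against 45 mg/m3. All 60 libraries add the 7 labelled outliers: the 2 liver-profile libraries of the exposed group, 1 exposed rat of the 180 mg/m3 set, 3 air rats of the 45 mg/m3 set and 1 exposed rat of another set. With them 3955 were higher and 1167 lower, 1116 and 38 differed from 180 mg/m3, and 3971 and 616 from 45 mg/m3. That fit ended 41 calls and reversed Adhfe1 (4.63), Mlc1 (4.11), C7 (-0.11), RT1-Bb (-0.12) and, not called as reported, Cd74 (-0.28), Col3a1 (-0.37), Cyp2b1 (-0.54), Gpnmb (-0.39), Lyz2 (-0.55), Mcm7 (-0.019) and Rfx3 (-0.20).

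Without 1 library, 900 to 1085 genes were higher and 383 to 660 lower, 0 to 1 higher against 180 mg/m3 (1 without air rat 77), and against 45 mg/m3 0 to 1 higher (1 without exposed rat 85) and 0 to 1 lower (1 without exposed rat 85, or rats 39 or 41 exposed to 45 mg/m3). The cause was not tested. Of genes not called, Sftpc came to 0.0067 under limma voom, and without 1 rat Sftpc ran from -0.0559 to 0.0662, Cyp2b1 from -0.0202 to 0.0529, Lyz2 from -0.00444 to 0.111 and Alb from -0.40 (without exposed rat 88) to 1.56. Muc5ac was not tested under the stricter filter, with all 60 libraries or in the 10 libraries alone, nor were Acta1, Ccl12, Cxcl11 and Ndst2 in the 10 alone. No paired analysis was possible because the rat numbers in the titles run on over the study and no number is shared between groups.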
